A study of Mus musculus with 12 samples.

Results

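RNA-seq measured the effect of EpA on Th9 cells that were also treated with fatostatin. EpA is endomelipeptide A, a cyclic peptide of endophytic fungi from *Ganoderma lucidum*, fatostatin is an inhibitor of the activation of SREBP transcription factors, and DMSO is the vehicle. The 3 libraries of the EpA+fato group were compared with the 3 of the DMSO+fato group, which are 6 of the 12 libraries of the series. The 3 EpA and 3 DMSO libraries, without fatostatin, were used for comparison. All came from naive CD4+ T cells isolated from the spleen of C57BL/6J mice with no stated genetic change, which were stimulated through CD3 and CD28 and polarized with IL-4 (10 ng/mL) and TGF-β (1 ng/mL), with antibodies against IL-12 and IFN-γ in the first days, and taken on day 4. Per the study's methods, mice of both sexes were used, matched for age and sex as young adults, and the labels give neither for single libraries. The labels do not say whether the replicates were separate cultures or animals, so the p-values measure only the spread between these libraries, which may be technical.

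Levels are in FPKM, that is, read counts divided by gene length and by the size of the library. Of 32051 genes, 13733 averaged 0.1 FPKM or more across all 12 libraries and were tested with limma on log2(FPKM + 0.1), a scale that understates the change of low genes. Adjusted p-values are over all genes tested. A gene is called when its adjusted p is below 0.05 and it differs by at least 1.5-fold. The smallest p that an exact permutation test allows for 1 gene, with 3 libraries against 3, is 0.1. The 6 libraries held 39858899 to 44375810 counted reads, and 1 read on a gene of 1 kb corresponded to 0.0225 to 0.0251 FPKM. Across genes, log2 values correlated with r of 0.9851 to 0.9871 between libraries of the same group (6 pairs) and 0.9815 to 0.9829 between groups (9 pairs), no library stood apart, and the labels name no batch.

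Th9 cells are CD4+ helper T cells that make IL-9, a cytokine known for its actions on mast cells and epithelia. IL-4, through STAT6 and GATA3, and TGF-β together induce them, and IRF4, BATF, and PU.1 (encoded by *Spi1*) act at the *Il9* locus. SREBP1 and SREBP2 are held in the endoplasmic reticulum and, once released and cleaved, turn on the genes of fatty acid and cholesterol synthesis. Fatostatin blocks this release, so the comparison asks which changes with EpA were present when SREBP activation was inhibited.

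The T cell identity of the libraries was checked first. The T cell markers *Cd3e*, *Cd3d*, *Cd3g*, and *Cd4* summed to 392.6 to 405.4 FPKM in DMSO+fato libraries and 343.3 to 346.8 FPKM in EpA+fato libraries, and 3 of the 4 were lower and 1 higher with EpA. Of 4 B cell markers, 3 were tested and 1 was lower, with sums of 7.51 to 8.619 FPKM without EpA and 6.228 to 6.857 FPKM with it. The 2 CD8 markers summed to 8.547 to 10.21 FPKM without EpA and 6.978 to 8.604 FPKM with it. Marker sums of NK cells, macrophages, dendritic cells, neutrophils, mast cells, and erythroid cells were below 1.5 FPKM in each library, *Siglech* and *Ly6g* were at 0 in all 6, and none of the tested genes of these lists passed the test. The part of these levels in the changes below was not tested. In bulk RNA, fewer cells of a type and less RNA per cell cannot be told apart.

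The stretch of 250 bases before the RefSeq transcription start is shown for 6 genes on which the results turn. *Il9* and *Il21* rose with EpA, and *Trat1* and *Il17rb* fell. *Cpox* and *Cldnd1* are neighbors that passed a test, given below, of whether the response differed with fatostatin. The result of that test depended on the libraries and settings. Sequences are from RefSeq on GRCm38.p6, read 5′ to 3′ on the strand of the gene. Capitals mark matches, on either strand, to the letters TGANTCA (AP-1), TTCNNNGAA (STAT), GGAAA (the core bound by NFAT), or GCGTG (the core bound by the aryl hydrocarbon receptor, AhR). The windows are chr13:56482258-56482507 for *Il9*, chr3:37232637-37232886 for *Il21*, chr16:48772063-48772312 for *Trat1*, and chr14:30008897-30009146 for *Il17rb*, all on the minus strand, and chr16:58669958-58670207 for *Cpox* and chr16:58727660-58727909 for *Cldnd1*, on the plus strand.
Il9: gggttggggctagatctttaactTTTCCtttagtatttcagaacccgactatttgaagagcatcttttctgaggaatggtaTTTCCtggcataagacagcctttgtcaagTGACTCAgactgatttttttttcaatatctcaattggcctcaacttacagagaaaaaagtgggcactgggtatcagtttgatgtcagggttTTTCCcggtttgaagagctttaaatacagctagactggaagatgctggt
Il21: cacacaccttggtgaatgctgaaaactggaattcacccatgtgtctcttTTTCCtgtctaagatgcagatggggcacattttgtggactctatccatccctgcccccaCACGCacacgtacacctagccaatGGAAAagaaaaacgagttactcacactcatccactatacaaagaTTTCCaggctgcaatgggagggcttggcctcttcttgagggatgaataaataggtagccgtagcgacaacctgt
Trat1: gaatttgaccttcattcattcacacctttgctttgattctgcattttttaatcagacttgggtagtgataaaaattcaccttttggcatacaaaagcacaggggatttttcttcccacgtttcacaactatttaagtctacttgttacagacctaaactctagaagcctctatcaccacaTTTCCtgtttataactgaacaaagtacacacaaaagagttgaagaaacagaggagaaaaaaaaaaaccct
Il17rb: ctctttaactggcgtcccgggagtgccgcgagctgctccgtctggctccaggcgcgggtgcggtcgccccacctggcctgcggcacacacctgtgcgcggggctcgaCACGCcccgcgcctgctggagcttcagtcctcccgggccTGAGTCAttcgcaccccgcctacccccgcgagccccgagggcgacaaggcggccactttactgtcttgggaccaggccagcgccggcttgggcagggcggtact
Cpox: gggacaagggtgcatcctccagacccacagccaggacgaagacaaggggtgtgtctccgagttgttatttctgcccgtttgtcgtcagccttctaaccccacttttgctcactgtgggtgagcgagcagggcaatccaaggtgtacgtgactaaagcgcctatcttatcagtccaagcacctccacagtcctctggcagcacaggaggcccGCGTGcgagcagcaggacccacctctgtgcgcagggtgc
Cldnd1: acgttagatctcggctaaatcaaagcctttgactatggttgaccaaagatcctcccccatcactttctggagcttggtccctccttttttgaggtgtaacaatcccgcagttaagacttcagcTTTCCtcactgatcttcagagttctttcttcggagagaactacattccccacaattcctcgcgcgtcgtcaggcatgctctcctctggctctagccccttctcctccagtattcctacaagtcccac
The *Il9* window held the AP-1 letters 140 bases before the start and 3 matches to the NFAT core, and that of *Il21* held 3 NFAT cores and 1 AhR core. *Il17rb*, which fell, also held the AP-1 letters, 104 bases before the start, so the letters were present on both sides. Among the 9840 tested genes with a promoter in the table, 4.03% held the AP-1 letters, against 8.89% of the 180 called higher and 10.7% of the 178 called lower. The STAT letters were in 5.85%, 6.11%, and 10.1% of these sets, the NFAT core in 54.3%, 52.2%, and 52.8%, and the AhR core in 45.8%, 38.9%, and 30.3%. A match is a description of the letters and not a binding site.

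EpA changed genes in both directions in the presence of fatostatin, with 7 of 9 tested type 2 and Th9 cytokines, 13 of 15 hypoxia genes, and 52 of 57 ribosome biogenesis genes higher, and 19 of 27 genes of T cell receptor signalling, 7 of 13 cytotoxic effectors, and 17 of 25 mitosis genes lower, at an adjusted p below 0.05. Of the 13733 genes, 259 were called higher (1.89%) and 256 lower (1.86%). Without the fold threshold, 2221 were higher (16.2%) and 1830 lower (13.3%), and these are the shares against which the gene lists below are read. The 3 and 3 libraries did not overlap for 503 of the 515 called genes, and for 41.4% of all genes tested. At least 2-fold changes were seen in 63 higher and 69 lower genes, 435 of the called genes were protein coding, and 250 averaged 1 FPKM or more. The median log2 fold change of all genes was 0.01. FPKM are scaled to the size of each library, so a change in total RNA per cell could not be seen. On a first principal component with 32.8% of the variance, DMSO+fato libraries lay between -20.58 and -19.44 and EpA+fato libraries between 17.39 and 21.67.

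**Figure D1:**
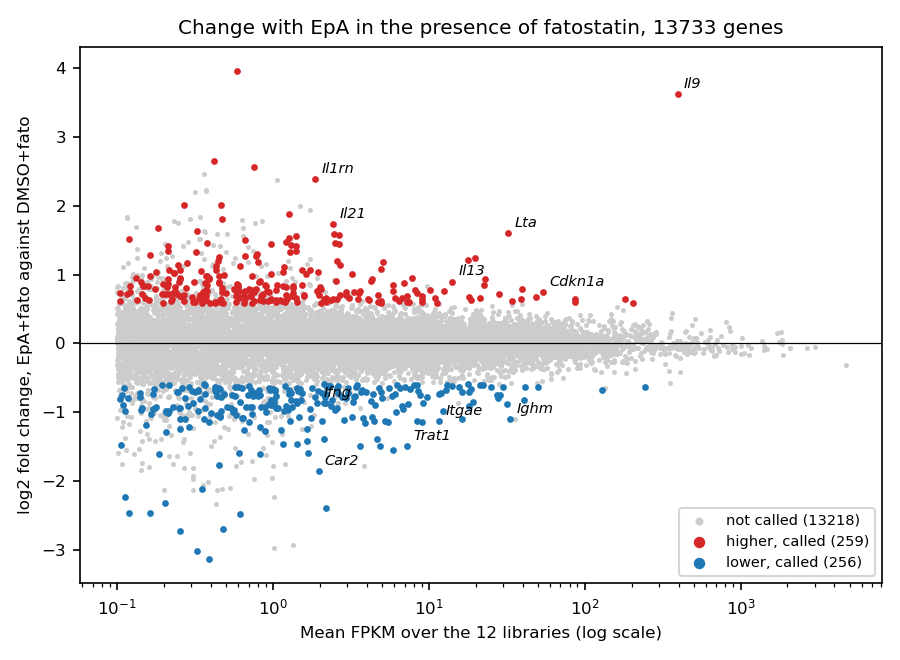
Mean level over the 12 libraries (x axis, FPKM, log scale) against the log2 fold change of EpA+fato over DMSO+fato (y axis) for 13733 genes, 1 point each; red points are the 259 genes called higher and blue points the 256 called lower. *Il9* stands apart at a log2 fold change of 3.63 among genes of high level, and the called genes spread over the whole range of levels.

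*Il9* was the gene with the largest increase among called genes that averaged 1 FPKM or more. It lies on chromosome 13 of GRCm38 from 56479277 to 56482246. Its level was 67.9, 60.7, and 70.8 FPKM in DMSO+fato libraries and 805, 802, and 855 FPKM in EpA+fato libraries. The means were 66.5 ± 5.22 and 821 ± 29.7 FPKM (SD, n = 3), a ratio of 12.3 on 1296 to 1616 and 17873 to 18778 reads. On the log2 scale the change was 3.63 (SE 0.0566, adjusted p = 1.72e-11), far beyond the spread between libraries. Without fatostatin it was 3.55, and the difference between the effects was 0.08 (95% interval -0.10 to 0.25, unadjusted p = 0.359), so a difference of more than 0.25 on the log2 scale lies outside the interval.

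Of the other type 2 and Th9 cytokines, most rose as well. *Il21*, a cytokine of follicular helper T cells and Th17 cells, was at 1.24, 1.03, and 1.18 FPKM without EpA and 4.1, 4.11, and 3.87 FPKM with it (log2 fold change 1.73, adjusted p = 1.11e-07). *Il13*, an effector cytokine of Th2 cells, was at 11, 11.7, and 10.6 FPKM without EpA and 21.5, 20.5, and 20.4 FPKM with it (0.90, adjusted p = 2.79e-06). For both genes each EpA+fato library was above each DMSO+fato library. *Il24*, of the IL-10 family, rose from a mean of 63 to 98.3 FPKM (log2 fold change 0.64), and *Il10*, an anti-inflammatory cytokine, from 53.7 to 71.2 FPKM (0.41). *Il4*, the defining Th2 cytokine, was at 7.57, 6.97, and 6.9 FPKM without EpA and 8.4, 9.35, and 9.55 FPKM with it, a small change that passed the test (0.34, adjusted p = 0.000667). In all, 7 of 9 tested genes of the list were higher and none lower (median log2 fold change 0.54, against 0.01 over all genes), and *Il6* and *Csf2* did not pass the test. Of the 12 genes in the list, *Il2*, *Il3*, and *Il31* were below the minimum mean.

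*Il5*, the eosinophil cytokine, passed by a small margin. It was at 1.01, 1.03, and 1.12 FPKM without EpA and 1.64, 1.41, and 1.68 FPKM with it, on 63 to 70 and 90 to 107 reads (log2 fold change 0.54, adjusted p = 0.0182). The groups did not overlap, but the gene no longer passed the adjusted p without replicate 1 (adjusted p = 0.0545) or 2 (0.0525) of DMSO+fato and without replicate 1 (0.0547) or 3 (0.0636) of EpA+fato.

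**Figure D2:**
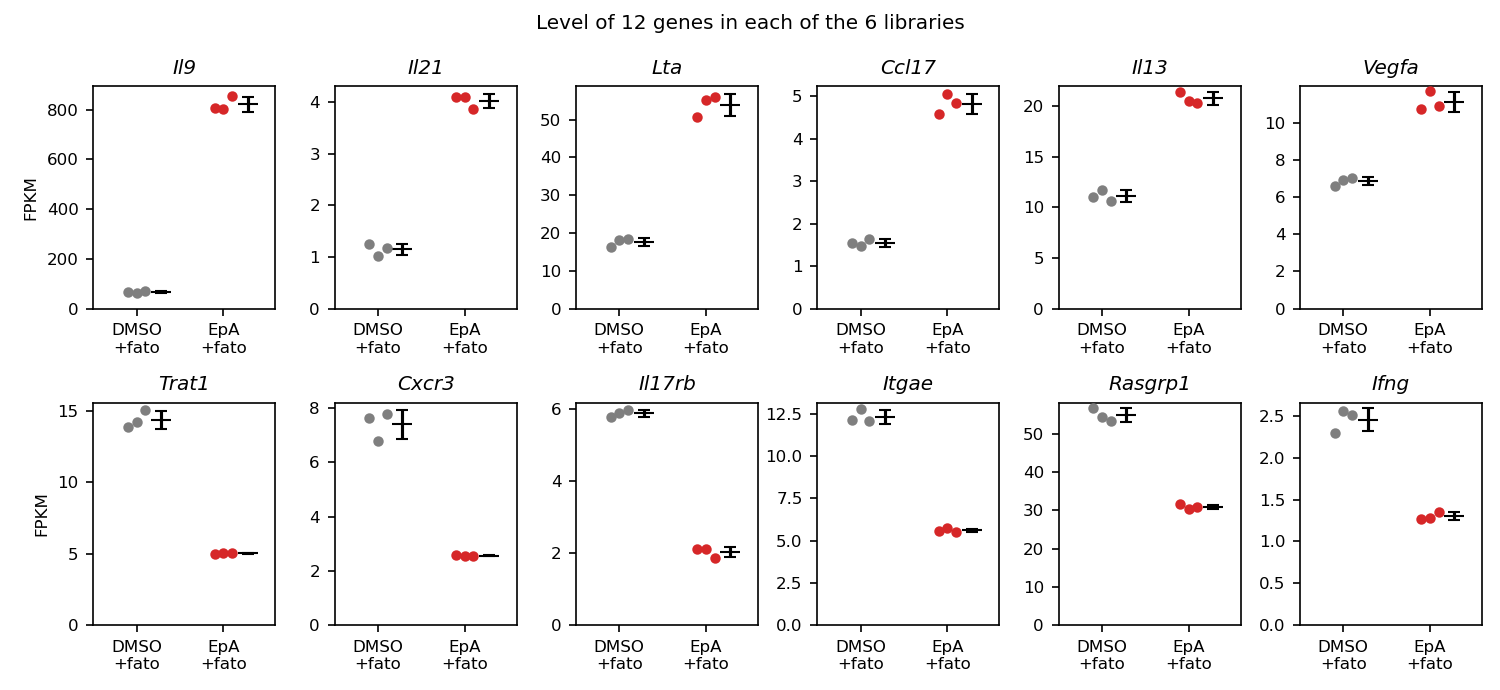
Level in FPKM (y axis, from 0) of 12 genes in each DMSO+fato library (grey points) and each EpA+fato library (red points), with the mean and SD of the 3 libraries in black. The groups do not overlap in any of the 12 panels: *Il9*, *Il21*, *Lta*, *Ccl17*, *Il13*, and *Vegfa* are higher with EpA, and *Trat1*, *Cxcr3*, *Il17rb*, *Itgae*, *Rasgrp1*, and *Ifng* are lower.

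After *Il9*, the largest increase among called genes that averaged 1 FPKM or more and showed no overlap was that of *Il1rn*, which encodes the IL-1 receptor antagonist. It was at 0.631, 0.603, and 0.607 FPKM without EpA and 3.53, 3.57, and 3.78 FPKM with it (log2 fold change 2.39, adjusted p = 8.13e-09). *Lta*, which encodes lymphotoxin α, was at 16.4, 18.3, and 18.3 FPKM without EpA and 50.6, 55.3, and 56 FPKM with it (1.61, adjusted p = 2.7e-09). *Ccl17*, a ligand of the receptor CCR4, rose from a mean of 1.54 to 4.82 FPKM (1.58), *Cldn4*, a tight junction protein, from 1.42 to 4.42 FPKM (1.58), and *Scin*, an actin-severing protein, from 0.76 to 2.44 FPKM (1.56). *Tmeff1* (1.47) and *Anxa3*, an annexin (1.45), were also among the 12 largest increases, which were chosen to show no overlap between the groups. Another 2 genes among the 12 were annotated as small Cajal body RNAs, *Gm25492* (1.88) and *Gm22728* (1.54), and rested on 1 to 13 reads per library. *Gm22728* lost its call without replicate 1 of EpA+fato (adjusted p = 0.0511).

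Among the 12 largest decreases, chosen like the increases, were an adaptor, a chemokine receptor, and a cytokine receptor. *Trat1*, an adaptor that binds the T cell receptor complex, was at 13.9, 14.2, and 15.1 FPKM without EpA and 4.98, 5.04, and 5.07 FPKM with it (log2 fold change -1.50, adjusted p = 4.71e-09). *Cxcr3*, a chemokine receptor of Th1 cells, was at 7.64, 6.8, and 7.79 FPKM without EpA and 2.58, 2.54, and 2.57 FPKM with it (-1.49, adjusted p = 8.16e-07). *Il17rb*, a subunit of the IL-25 receptor, was at 5.78, 5.88, and 5.97 FPKM without EpA and 2.11, 2.12, and 1.86 FPKM with it (-1.49, adjusted p = 1.55e-08). In these 3 genes the libraries of a group lay close together and the groups were far apart. *Car2*, a carbonic anhydrase, was at 3.57, 4.09, and 3.61 FPKM without EpA and 0.933, 0.973, and 0.997 FPKM with it (-1.85, adjusted p = 1.27e-07).

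The other genes with large decreases were of lower level or of mixed function. *Cd8a*, a chain of the CD8 coreceptor, was at 1.52, 1.6, and 1.44 FPKM without EpA and 0.466, 0.43, and 0.577 FPKM with it (-1.46, adjusted p = 2.57e-06). *Cd8b1*, the partner chain, was at 7.19, 8.61, and 7.11 FPKM and 7.19, 8.17, and 6.4 FPKM and did not pass the test (-0.07, adjusted p = 0.606). *Iigp1*, an interferon-inducible GTPase, was lower (-1.54), as was the processed pseudogene *Gm8714* (-2.40), which lies near it. *Frmpd1* (-1.60), *Sidt1*, which encodes a transmembrane protein linked to RNA uptake (-1.46), *Fcrl2*, an Fc receptor-like gene (-1.39), and *Art2b*, a cell surface ADP-ribosyltransferase (-1.26), were also among the 12. The small nuclear RNA *Gm23040* (-1.42) rested on 17 to 20 reads without EpA and 6 to 7 with it.

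Of the 17 genes that the study follows, 16 were tested. *Spi1* was below the minimum mean, with 2 to 8 reads per library without EpA and 8 to 10 with it. *Tnf*, a proinflammatory cytokine, was at 3.59, 3.57, and 4.61 FPKM without EpA and 6.19, 5.84, and 5.67 FPKM with it (log2 fold change 0.59, adjusted p = 0.000834). *Ifng*, the Th1 cytokine, was at 2.3, 2.56, and 2.52 FPKM without EpA and 1.27, 1.28, and 1.36 FPKM with it (-0.86, adjusted p = 0.000297). *Pdcd1*, the inhibitory receptor PD-1, was lower, from a mean of 12.2 to 9.69 FPKM (-0.33), and *Slc2a1*, the glucose transporter GLUT1, was higher, from 39.1 to 50.4 FPKM (0.36). *Batf* rose from 71.4 to 88.7 FPKM (0.31) and *Cd69*, an early activation marker, from 1.21 to 1.59 FPKM (0.38), below the 1.5-fold threshold.

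*Irf4*, *Zap70*, *Fasl*, and *Fads1* differed little between the groups. *Irf4* was at 168, 158, and 161 FPKM without EpA and 168, 161, and 163 FPKM with it, so that the groups overlapped (log2 fold change 0.02, adjusted p = 0.656). The sign of this value turned without replicate 2 of DMSO+fato (-0.00207) or replicate 1 of EpA+fato (-0.00011). *Zap70*, the kinase that acts on the activated T cell receptor, was at 51, 53.2, and 51.8 FPKM and 48.2, 50.3, and 51.5 FPKM (-0.06, adjusted p = 0.155). *Fasl*, the ligand of the death receptor Fas, was at 10.4, 9.38, and 9.27 FPKM without EpA and 11.2, 10.9, and 12 FPKM with it (0.23, adjusted p = 0.0469). It no longer passed when any library but replicate 1 of DMSO+fato was left out, with adjusted p of 0.0596 (replicate 2 of EpA+fato) to 0.148 (replicate 3 of EpA+fato). *Fads1*, a fatty acid desaturase, was 13.7 and 12.9 FPKM on average (-0.08, adjusted p = 0.0393), and it likewise passed with replicate 1 of DMSO+fato left out but with no other library left out, with adjusted p of 0.0624 (replicate 1 of EpA+fato) to 0.144 (replicate 3 of DMSO+fato).

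Gene lists were then described by how many of their tested members passed an adjusted p of 0.05 in each direction. Among genes of transcription, 5 of 18 tested Th9-promoting factors were higher and 5 lower (median -0.02). *Fosl2*, an AP-1 subunit, was at 5.32, 5.1, and 5.59 FPKM without EpA and 10.5, 10.3, and 10.2 FPKM with it (0.94, adjusted p = 4.26e-08). *Etv5* (0.83), *Hif1a* (0.42), *Batf* (0.31), and *Stat6* (0.20) were also higher. *Prdm1*, the gene of Blimp-1 (-0.68), *Irf1* (-0.35), *Nfatc2* (-0.18), *Smad2* (-0.13), and *Gata3* (-0.13) were lower, and the number lower was 3 without replicate 3 of DMSO+fato or replicate 2 of EpA+fato. Of 12 factors of other T cell lineages, 7 were lower and 2 higher (median -0.32). *Tbx21* of Th1 cells fell from 4.95 to 3.39 FPKM (-0.53), *Foxp3* of regulatory T cells from 1.7 to 1.01 FPKM (-0.68), and *Eomes* (-0.94) and *Tox* (-0.93) at low levels. *Runx3* (0.13) was among those that rose.

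TNF superfamily ligands moved in both directions. Of 12 TNF superfamily ligands, 6 were higher, namely *Lta*, *Tnfsf9*, *Tnf*, *Tnfsf8*, *Fasl*, and *Ltb*, and 3 were lower (median 0.13): *Tnfsf10*, the death ligand TRAIL (10.9 to 6.68 FPKM, -0.69), *Tnfsf13b*, the B cell factor BAFF (-0.64), and *Tnfsf4*, the gene of OX40L (-0.47). *Tnfsf14*, *Tnfsf11*, and *Cd40lg* did not pass the test. Of 13 cytotoxic effectors, 7 were lower and 1 higher (median -0.42). *Gzmb*, the gene of granzyme B, was at 138, 140, and 141 FPKM without EpA and 103, 105, and 106 FPKM with it (-0.42, adjusted p = 7.64e-08). *Gzma* fell from 25.2 to 16.2 FPKM (-0.63), *Ctsw*, a protease of cytotoxic cells, from 35.5 to 21.1 FPKM (-0.75), and *Nkg7*, a granule protein, from 8.4 to 5.37 FPKM (-0.65). *Srgn*, the granule proteoglycan, was the gene that rose (122 to 152 FPKM, 0.32).

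Of 18 chemokines and chemokine receptors, 5 were higher and 3 lower (median -0.01). *Ccl22* (1.19) rose with *Ccl17*, the other CCR4 ligand, and *Gpr15*, a homing receptor, was at 1.06, 1.09, and 1.21 FPKM without EpA and 3.3, 2.31, and 1.95 FPKM with it (1.07, adjusted p = 0.000194). Both levels of *Gpr15* were below those without fatostatin, where its means were 6.57 FPKM in DMSO and 9.7 FPKM in EpA libraries. *Cxcr6* (-1.13) fell with *Cxcr3*. Of 32 genes in the cytokine receptor list, which also holds the antagonist *Il1rn*, 6 were higher, *Il1rn* included, and 9 lower (median -0.05). *Il9r*, the receptor of IL-9, was at 1.22, 1.32, and 1.62 FPKM without EpA and 0.694, 0.705, and 0.715 FPKM with it (-0.88, adjusted p = 8.27e-05), so it moved against its ligand. *Il7r* (-0.55), *Il6ra* (-0.43), *Il4ra* (111 to 89.4 FPKM, -0.31), and *Tgfbr1* (-0.30) were also lower, and *Il10ra* (0.35), *Il12rb2* (0.26), and *Il21r* (0.13) were higher.

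Most genes of T cell receptor signalling were lower. Of 27 genes of T cell receptor signalling, 19 were lower and 1 was higher (median -0.18), against 13.3% lower among all genes. *Rasgrp1*, which couples the receptor to Ras, was at 57, 54.5, and 53.4 FPKM without EpA and 31.6, 30.5, and 30.8 FPKM with it (-0.82, adjusted p = 6.56e-09). *Cblb*, a ubiquitin ligase that restrains signalling (-0.48), *Cd3g* (-0.37), *Cd3e* (51.7 to 40.8 FPKM, -0.34), and *Fyn* (-0.32) were lower by less than 1.5-fold, and *Map2k1*, which encodes the kinase MEK1, was higher (26.7 to 34.4 FPKM, 0.36). Of 19 checkpoint and activation receptors, 9 were higher and 6 lower (median -0.03). *Cd96* (22.5 to 12.4 FPKM, -0.86), *Tigit* (-0.61), *Cd28* (-0.58), *Lag3* (-0.58), and *Icos* (-0.35) fell with *Pdcd1*, and *Cd200* (0.56), *Cd274*, the gene of PD-L1 (0.49), *Btla* (0.37), and *Il2ra* (731 to 905 FPKM, 0.31) rose. Of 20 integrins and adhesion molecules, 10 were lower and 6 higher (median -0.07). *Itgae*, the CD103 chain that binds E-cadherin, was at 12.1, 12.8, and 12.1 FPKM without EpA and 5.55, 5.73, and 5.53 FPKM with it (-1.12, adjusted p = 1.07e-09), and *Itgb3* fell from 35.8 to 21.3 FPKM (-0.75). *Itga3* rose from 0.42 to 0.925 FPKM (0.98, adjusted p = 0.000145), and *Itga5* (0.41) and *Icam1* (0.34) were also higher.

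Early response genes moved in both directions. Of 25 ERK feedback and early response genes, 7 were higher and 6 lower (median 0.05). *Nr4a2*, an orphan nuclear receptor, was at 1.97, 1.78, and 1.62 FPKM without EpA and 3.99, 3.82, and 4.33 FPKM with it (1.13, adjusted p = 3.64e-06), and *Ier3* (0.76), *Junb* (126 to 182 FPKM, 0.53), and *Myc* (0.29) rose. *Egr3* (-1.26), *Egr1* (-0.88), and *Dusp10*, a MAP kinase phosphatase (-0.49), fell. Of 15 quiescence and memory genes, 9 were lower and 2 higher (median -0.09), with *Klf2* (2.92 to 1.3 FPKM, -1.12) and *Id3* (6.98 to 3.47 FPKM, -0.99) the largest decreases and *Klf6* (0.43) and *Ccr7* (0.28) the 2 increases.

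SREBP target genes were examined because fatostatin was present in both groups. *Srebf1*, the gene of SREBP1, was at 33.9, 35, and 33.8 FPKM without EpA and 29.1, 28.7, and 29.4 FPKM with it (log2 fold change -0.24, adjusted p = 1.91e-05), and the difference from the effect without fatostatin was 0.04 (95% interval -0.04 to 0.11). Of 22 genes of SREBP1 and fatty acid synthesis, 8 were higher and 3 lower (median 0.10). *Dgat2*, which makes triglycerides, was at 1.19, 0.854, and 0.897 FPKM without EpA and 1.73, 2.06, and 1.68 FPKM with it (0.84, adjusted p = 0.00173), *Dgat1* (0.38) and *Fasn*, fatty acid synthase (0.20), were higher, and *Elovl5* (-0.23) was lower with *Srebf1* and *Fads1*. *Scd1* and *Scd2*, the stearoyl-CoA desaturases, were at means of 172 and 171 FPKM and of 512 and 517 FPKM, without passing the test. Of 23 genes of cholesterol synthesis and uptake, 13 were higher and 1 lower (median 0.14). *Idi1* (18.1 to 24.6 FPKM, 0.44), *Hmgcs1* (0.30), *Fdft1* (0.23), *Msmo1* (0.21), and *Cyp51* (0.20) were higher by less than 1.5-fold, and *Nsdhl* (-0.09) was lower, but did not pass without replicate 2 of DMSO+fato or of EpA+fato (0 genes lower). Of 7 targets of the liver X receptors, 2 were lower and none higher (median -0.12), of which *Abcg1*, a sterol transporter, fell from 8.53 to 5.94 FPKM (-0.51). Without replicate 2 of DMSO+fato, 1 gene of this list was higher.

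Most glycolysis and hypoxia genes were higher. Of 23 glycolysis genes, 15 were higher and 1 lower (median 0.17), against 16.2% higher among all genes. *Hk2*, a hexokinase, was at 29.7, 28.4, and 27.3 FPKM without EpA and 45, 42.4, and 43.8 FPKM with it (0.62, adjusted p = 1.21e-07), and *Pfkfb3* (0.46), *Slc16a3* (0.40), *Tpi1* (451 to 578 FPKM, 0.36), and *Pgam1* (0.32) followed. Of 15 hypoxia response genes, 13 were higher and none lower (median 0.34). *Vegfa*, an angiogenic factor, was at 6.61, 6.93, and 7.06 FPKM without EpA and 10.8, 11.7, and 10.9 FPKM with it (0.69, adjusted p = 9.59e-07), and *P4ha2* (0.55), *Mxi1* (0.48), and *Bnip3* (0.35) rose as well. Of 24 tricarboxylic acid cycle genes, 13 were higher and 2 lower (median 0.09), with *Pcx* (0.43) the largest increase. Leaving out any 1 library but replicate 3 of DMSO+fato left 1 lower gene in the tricarboxylic acid cycle, and leaving out replicate 1 or 2 of DMSO+fato or 1 or 3 of EpA+fato left 0 in glycolysis. Of 16 genes of fatty acid oxidation and lipid transport, 4 were higher, among them *Acadm* (0.32), and 2 lower, with 1 lower without replicate 2 of DMSO+fato or 3 of EpA+fato (median 0.07). Of 84 nuclear-encoded respiratory chain genes, 10 were higher and 9 lower (median 0.03), near the shares of all genes, and the number higher was 19 without replicate 1 and 6 without replicate 3 of EpA+fato.

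Most genes of ribosome biogenesis, which act in the making of ribosomes, were higher. Of 57 ribosome biogenesis genes, 52 were higher and 1 lower (median 0.20), by less than 1.5-fold in each, with *Rrp12* (18.8 to 24 FPKM, 0.35), *Nop16* (0.35), *Noc4l* (0.32), and *Mybbp1a* (72.8 to 90.9 FPKM, 0.32) among the largest. The lower gene, *Ubtf* (-0.08), did not pass without replicate 2 or 3 of either group (0 lower). Of 77 mitochondrial ribosome genes, 30 were higher and none lower (median 0.10), for example *Mrps18b* (0.36) and *Mrpl38* (0.34). Of 83 cytosolic ribosomal protein genes, 3 were higher and 18 lower (median -0.05), for example *Rps15* (-0.17) and *Rpsa* (-0.16). Ribosomal protein genes have many processed copies in the genome, so their reads may be split and these values are uncertain.

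Stress pathways did not move as 1 group. Of 25 genes of ATF4 and amino acid stress, 13 were higher and 1 lower (median 0.16). *Ddit4*, an inhibitor of mTORC1, rose from 172 to 258 FPKM (0.59), *Vldlr* from 1.79 to 2.81 FPKM (0.63), and *Atf3* from 16.5 to 23.2 FPKM (0.49). The lower gene, *Ddit3* (-0.21), did not pass without replicate 2 or 3 of DMSO+fato or 1 or 2 of EpA+fato (0 lower). Of 23 genes of the unfolded protein response, 16 were lower and 1 higher (median -0.17), with *Derl3* (1.32 to 0.514 FPKM, -1.22), *Xbp1* (76.6 to 61.9 FPKM, -0.31), and *Hyou1* (-0.26) lower and *Edem1* (0.24) higher. Of 19 NRF2 antioxidant genes, 7 were higher and none lower (median 0.04), for example *Txnrd1* (23.1 to 31.2 FPKM, 0.43) and *Mt1* (0.40), and 1 was lower without replicate 2 of DMSO+fato or 3 of EpA+fato. Of 29 interferon-stimulated genes, 10 were lower and 2 higher (median -0.17), and 1 was higher without replicate 2 of DMSO+fato or any EpA+fato library. *Gbp2*, a guanylate-binding protein, was at 24.3, 25.1, and 24.8 FPKM without EpA and 15.3, 15.3, and 14.5 FPKM with it (-0.71, adjusted p = 1.96e-07), and *Mx1* fell from 0.959 to 0.415 FPKM (-1.05).

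More cell cycle genes were lower than higher, by small amounts. Of 29 DNA replication genes, 15 were lower and 1 higher (median -0.07), with *Lig1* (120 to 98.3 FPKM, -0.28) and *Mcm7* (-0.17) lower and *Ccne2* (0.21) higher. Of 25 mitosis genes, 17 were lower and none higher (median -0.13), with *Ccnb2*, a mitotic cyclin (97 to 75.3 FPKM, -0.36), and *Bub1b* (-0.19) lower. Of 17 p53 targets, 10 were higher and 2 lower (median 0.24), or 1 lower without replicate 2 of DMSO+fato. *Plk2* (21.9 to 34.6 FPKM, 0.66) and *Zmat3* (0.40) rose with *Cdkn1a*, the gene of the cell cycle inhibitor p21, which is described below, and *Sesn1* (-0.33) fell. Of 14 BCL-2 family genes, 3 were higher and 4 lower (median -0.04), for example *Pmaip1* (0.27) and *Bcl2* (26.6 to 21.6 FPKM, -0.30). The number higher was 1 without replicate 1 or 2 of DMSO+fato or 2 of EpA+fato, and the number lower 2 without replicate 1 or 2 of DMSO+fato or 1 of EpA+fato.

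Genes of heme and of AhR were mixed. Of 16 genes of heme synthesis and breakdown, 3 were higher, *Cpox* (0.46), *Hmox1* (0.38), and *Alas1* (0.17), and 2 lower (median -0.02), with 0 or 1 lower when any library but replicate 3 of DMSO+fato was left out. Of 9 genes of the AhR pathway, 3 were higher and 2 lower (median 0.12). *Cyp1a1*, the classical AhR target, was at 0.17, 0.126, and 0.213 FPKM without EpA and 0.0507, 0, and 0.035 FPKM with it, on 14 to 24 and 0 to 6 reads (log2 fold change -1.08, adjusted p = 0.00052). It reached the minimum mean through the libraries without fatostatin, so its value with fatostatin rests on few reads. Its mean level without fatostatin was 2.76 FPKM in DMSO and 2.94 FPKM in EpA libraries (0.09), and the difference of the effects had an unadjusted p of 0.000391, which did not pass after adjustment (0.234). *Asb2*, another target, moved up, from 0.999, 0.836, and 0.885 FPKM to 1.59, 1.67, and 1.37 FPKM (0.71, adjusted p = 0.000555).

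**Figure D3:**
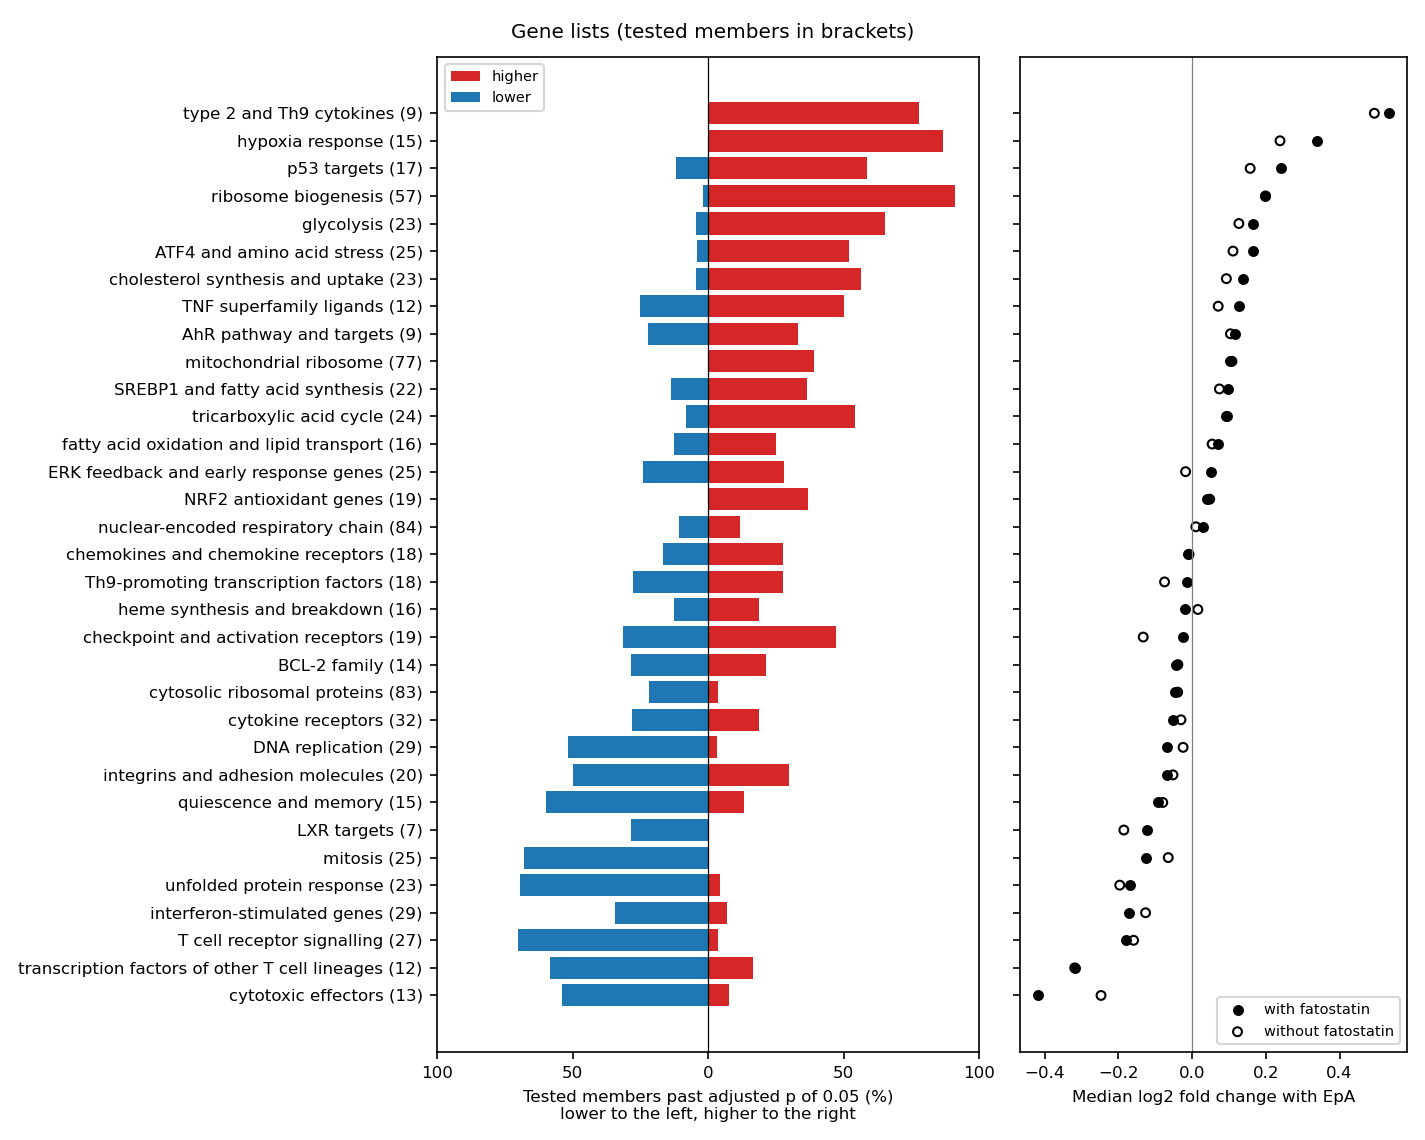
For 33 gene lists, the left panel gives the percentage of tested members past an adjusted p of 0.05 (lower to the left in blue, higher to the right in red) and the right panel the median log2 fold change with EpA in the presence (filled) and absence (open) of fatostatin. The type 2 and Th9 cytokines are at the top with a median of 0.54 and the cytotoxic effectors at the bottom with -0.42.

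The effect of EpA with fatostatin was then set beside its effect without fatostatin, a comparison of 6 other libraries that shares none with it. Without fatostatin, 198 genes were called higher (1.44%) and 266 lower (1.94%). Called in both and in the same direction were 278 genes, 122 higher and 156 lower, which are 54.0% of the 515 called with fatostatin and 59.9% of the 464 called without it. The genes called in opposite directions were 2, the miRNA genes *Mir1929* and *Mir3076*. Of the 464 genes called without fatostatin, 431 had the same sign with it, and of the 210 that averaged 1 FPKM or more, 201. The genes called higher with fatostatin had a median log2 fold change of 0.77 with it and 0.60 without it, and those called lower -0.84 and -0.68. The genes called without fatostatin showed the reverse order, at 0.80 without and 0.72 with it when higher and -0.80 and -0.68 when lower. Each set was chosen on its own values. Across genes, which are not replicates, the 2 effects correlated with r of 0.481 over all 13733 genes, 0.724 over the 10298 that averaged 1 FPKM or more, and 0.888 over the 4717 with at least 10 FPKM.

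**Figure D4:**
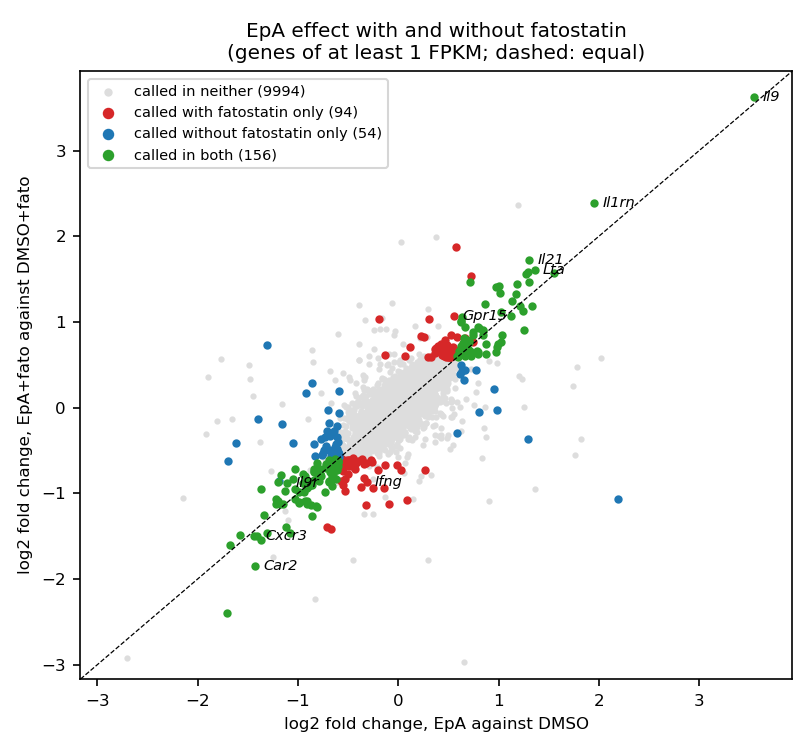
The log2 fold change with EpA in the absence (x axis) against the presence (y axis) of fatostatin for the 10298 genes that averaged 1 FPKM or more, 1 point each, colored by where the gene was called, with a dashed line where both are equal. *Il9* lies near the line at 3.55 and 3.63, *Il1rn* (1.96 and 2.39) above it, and *Ifng* (-0.31 and -0.86) below it.

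A test of the difference between the 2 effects passed an adjusted p of 0.05 for 6 genes (0.0437%), all at 0.0372, while 1083 genes (7.89%) had an unadjusted p below 0.05. *Cdkn1a* was at 50.9, 52.5, and 53.3 FPKM without EpA and 85, 87.3, and 89.5 FPKM with it. It rose by a log2 fold change of 0.74 with fatostatin and 0.99 without it (difference -0.25, 95% interval -0.32 to -0.19), from means of 52.2 and 26.2 FPKM. *Cpox*, an enzyme of heme synthesis, was at 17.5, 16.3, and 16.4 FPKM without EpA and 22.8, 23.2, and 23.1 FPKM with it (0.46 against 0.17 without fatostatin, difference 0.29, interval 0.20 to 0.37), and its mean without either compound was 41.7 FPKM. *Cldnd1*, its neighbor on chromosome 16, was at 65.8, 65.9, and 64 FPKM without EpA and 82.3, 82.8, and 79.3 FPKM with it (0.32 against 0.09, difference 0.23, interval 0.16 to 0.30), with 147 FPKM without either compound. *Gpr15* lies between them and overlaps the end of *Cpox* (log2 fold change 1.07 against 0.56, unadjusted p = 0.0261, adjusted p = 0.555), and whether reads were counted by strand is not given in the sources used here.

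The other 3 genes rose with EpA in the presence of fatostatin. In its absence, *Neat1* was lower with EpA and 2 did not pass the test. *Nr4a3*, an orphan nuclear receptor induced by T cell receptor signals, was at 5.36, 5.58, and 5.01 FPKM without EpA and 7.61, 7.79, and 7.43 FPKM with it (0.51 against 0.02, difference 0.49, interval 0.34 to 0.64). *Rara*, the retinoic acid receptor α, was at 6.6, 6.64, and 6.48 FPKM without EpA and 8.25, 8.44, and 8.54 FPKM with it (0.35 against 0.02, difference 0.33, interval 0.23 to 0.42). *Neat1*, a long noncoding RNA of paraspeckles, was at 7.53, 7.12, and 7.36 FPKM without EpA and 8.55, 8.67, and 8.82 FPKM with it (0.24 against -0.10, difference 0.33, interval 0.24 to 0.43). The EpA+fato and DMSO+fato libraries did not overlap in any of these 6 genes, as in 41.4% of all genes tested. That concerns the change with fatostatin only and not the difference between the effects. The number that passed depended on the libraries: between 0 and 2 genes passed when any 1 of the 12 libraries was left out (2 without replicate 1 of EpA or of DMSO+fato, 0 without any other), and 0 to 20 under other settings.

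Other genes named above had a larger or smaller change with fatostatin at an unadjusted p below 0.05, and none of these passed after adjustment. *Ifng* had log2 fold changes of -0.86 with fatostatin and -0.31 without it (difference -0.55, interval -0.93 to -0.17, unadjusted p = 0.00851, adjusted p = 0.426). For *Il4* they were 0.34 and 0.01 (0.33, interval 0.16 to 0.50, unadjusted p = 0.00127, adjusted p = 0.305), and for *Lta* 1.61 and 1.36 (0.25, interval 0.10 to 0.40, unadjusted p = 0.00382, adjusted p = 0.365). *Il21*, *Il1rn*, and *Car2* were of this kind, with differences of 0.42, 0.43, and -0.42. An unadjusted p below 0.05 was reached by 7.89% of all genes tested. *Lta*, *Il21*, *Il1rn*, and *Car2* were chosen for their large changes with fatostatin. That value enters the difference and favors a larger change with fatostatin, so no conclusion is drawn from these 4. The change was smaller with fatostatin for *Itgb3* (-0.75 against -0.84, unadjusted p = 0.0228), *Itgae* (-1.12 against -1.22, 0.0394), *Tnfsf8* (0.31 against 0.41, 0.0198), *Zmat3* (0.40 against 0.53, 0.0377), *Plk2* (0.66 against 0.78, 0.0496), and *Ccne2* (0.21 against 0.36, 0.00544). For *Il13* the difference was 0.06 (interval -0.16 to 0.27), for *Trat1* -0.06 (-0.21 to 0.09), for *Rasgrp1* -0.02 (-0.11 to 0.07), and for *Batf* -0.02 (-0.11 to 0.06), so that a change of more than these bounds lies outside the interval of each gene.

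**Figure D5:**
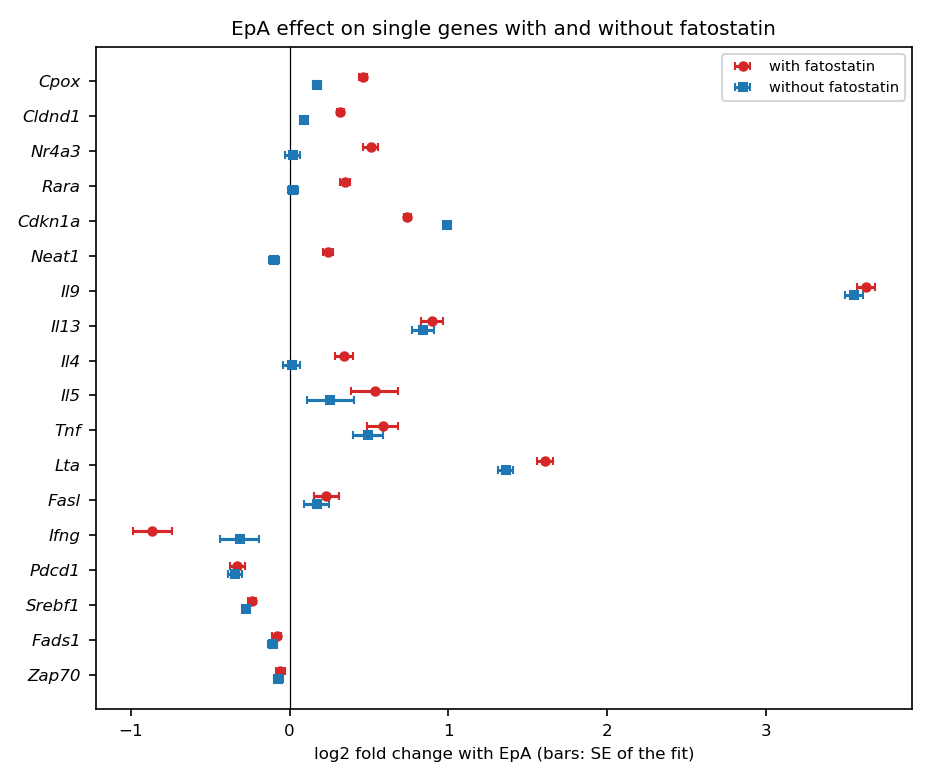
The log2 fold change with EpA (x axis, bars are the SE of the fit) of 18 genes in the presence (red circles) and absence (blue squares) of fatostatin. The 6 genes at the top are those of the test of the difference. The log2 fold change with EpA is lower in the presence of fatostatin for *Cdkn1a* (0.74 against 0.99) and higher for the other 5. The symbols of *Il9*, *Il13*, *Pdcd1*, *Srebf1*, and *Zap70* lie close together.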

How the data were processed

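RNA-seq libraries (TruSeq RNA, from total RNA) were made from Th9 cells of 4 groups with 3 replicates each, and the 6 libraries with fatostatin form the comparison reported here. The authors used Trim Galore for trimming, HISAT2 for alignment to GRCm38, and featureCounts for counting, and they deposited FPKM values, in which counts are divided by gene length and total reads. The annotation release and the use of strand in counting are not given in the sources used here, so overlapping genes are uncertain. The table had 32352 lines for 32051 genes, 1 line per gene was kept since the 301 repeated lines carried the same values, and 0 columns belonged to no sample.

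Genes averaging 0.1 FPKM or more over 12 libraries were tested as log2(FPKM + 0.1) with limma 3.58.1 in R 4.3.3, in 1 model (1 coefficient per group, empirical Bayes with a trend on level). Contrasts were EpA+fato against DMSO+fato, EpA against DMSO, and their difference. p-values are two-sided and adjusted by Benjamini-Hochberg over 13733 genes. Calls required an adjusted p below 0.05 and 1.5-fold. The method was tested on simulated data. With exon lengths from a GENCODE annotation of GRCm38, which covered 99.9% of genes, reads were recovered from the FPKM, and 98.4% to 98.6% of values per library came out within 0.05 of a whole number. Gene positions are from that annotation.

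Named genes were the 12 largest increases and decreases among called genes that averaged 1 FPKM or more, without overlap of the groups, 17 genes that the study follows, up to 8 genes with the smallest p for the difference, up to 4 members of each list per direction, and the members of the lists of AhR, SREBP1, cholesterol, and TNF ligand genes. Members and lists were chosen with earlier results of these data known, so no test of a list was made. *Cd8b1*, *Gpr15*, *Mir1929*, *Mir3076*, further list members, and the genes of the last section were named after their values were seen. Some genes that this rule names are not reported here. Alternatives changed the pseudocount, minimum level, scaling (TPM, median ratio), fold threshold, libraries in the fit, empirical Bayes trend, replicate block, and test (voom of limma on recovered reads), and left out each library in turn.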

Additional observations from a re-analysis of the deposited data

Results flagged for a closer look

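By the test of the difference in the main limma fit of all genes, the response to EpA differed with fatostatin in 6 genes (adjusted p = 0.0372 for each). The number depended on the settings, with 0 genes under median-ratio factors, 0 with a replicate block, and 20 with voom. Leaving out 1 library gave 0 to 2 genes. The difference, with fatostatin minus without it on the log2 scale, was 0.49 for *Nr4a3*, 0.33 for *Neat1*, 0.33 for *Rara*, 0.29 for *Cpox*, 0.23 for *Cldnd1*, and -0.25 for *Cdkn1a*. In each of the 6 genes all 3 EpA+fato libraries were above all 3 DMSO+fato libraries. The groups did not overlap for 41.4% of all genes tested, and this does not bear on the difference between the effects. The mean level without EpA was 52.2 FPKM with and 26.2 FPKM without fatostatin for *Cdkn1a*, 16.7 and 41.7 FPKM for *Cpox*, 65.2 and 147 FPKM for *Cldnd1*, 5.32 and 2.61 FPKM for *Nr4a3*, 6.57 and 8.63 FPKM for *Rara*, and 7.34 and 8.38 FPKM for *Neat1*. With EpA, *Rara* was at means of 8.41 FPKM with and 8.77 FPKM without fatostatin, and *Neat1* at 8.68 and 7.84 FPKM. The part of these levels in the difference was not tested.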

How the results depend on the processing

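Of the 515 called genes, none changed sign under any alternative in which it was tested. A pseudocount of 1 FPKM gave 70 higher and 91 lower genes, a minimum mean of 1 FPKM 113 and 139, a threshold of 1.2-fold 916 and 772, and one of 2-fold 63 and 69. Leaving out 1 library gave 231 to 250 higher and 239 to 250 lower genes, 200 to 207 named genes past the adjusted p (225 with all libraries), and 394 to 444 list members (448 with all libraries). The other settings stayed within 1.5 times, at 293 higher and 264 lower with TPM, 239 and 273 with median-ratio factors, 342 and 303 with voom, and 230 and 243 in a fit of only the 6 libraries. The test of the difference, with 6 genes, gave 10 with a pseudocount of 0.01 FPKM, 20 with voom, 2 with TPM, 0 with median-ratio factors, 0 when a 1.5-fold difference was required, and 0 to 2 when 1 library was left out, and the cause was not tested.

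Same-numbered libraries of the 2 groups did not deviate together (correlations 0.0612, 0.0143, and 0.0147), so the numbers were not taken to pair samples. With the replicate number as a block, 250 genes were higher and 249 lower, and 0 differed between the effects.

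Of 227 named genes tested, 226 kept their direction and 188 also their side of the threshold under all 16 alternatives. Many of these genes were named because they passed the adjusted p in the main fit, as 4051 of all 13733 genes did. The counts of named genes therefore follow in part from the choice. *Irf4*, which was not called, was reversed without replicate 2 of DMSO+fato (-0.00207) and without replicate 1 of EpA+fato (-0.00011), in a range up to 0.0394 without replicate 1 of DMSO+fato. Depth limits the small noncoding RNAs and genes below 1 FPKM, which rest on few reads.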

Other observations

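The genes below were chosen after their values were seen and are descriptions only. The interferon-inducible GTPases of the immunity-related and guanylate-binding families, which act against intracellular microbes, were mostly lower with EpA in the presence of fatostatin. Of 18 genes, 17 were tested, 13 passed an adjusted p of 0.05 as lower and none as higher, and the median was -0.71 on the log2 scale (-0.57 without fatostatin). *Irgm1* was at 14.8, 15, and 14.6 FPKM without EpA and 8.95, 8.65, and 8.91 FPKM with it (-0.74, adjusted p = 6.56e-09). *Tgtp1* (13.7 to 7.51 FPKM, -0.86) and *Tgtp2* (8.26 to 3.69 FPKM, -1.14) are close copies that may share reads.

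*Ighm* and part of the T cell receptor γ locus were also lower. Of 14 genes of the T cell receptor γ locus, 12 were tested, 8 were lower and none higher (median -0.89). *Trgc2* was at 43.4, 46.1, and 45.2 FPKM without EpA and 27.7, 28.9, and 30.4 FPKM with it (-0.63, adjusted p = 3.99e-05). *Ighm*, the constant region of the immunoglobulin μ chain, was at 44.1, 43.6, and 44.5 FPKM without EpA and 20.6, 20.7, and 20.1 FPKM with it (-1.11, adjusted p = 1.97e-10). The segments of these loci are near-identical in part, so the values of single segments are uncertain.

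*Fbxl21*, the neighbor of *Il9* on chromosome 13 (56522472 to 56537898), was at 0.132, 0.0994, and 0.0824 FPKM without EpA and 0.839, 0.752, and 0.59 FPKM with it (2.01, adjusted p = 3.7e-05). It rose by 2.18 without fatostatin. *Pdpn*, a membrane glycoprotein, rose from 7.14 to 16.7 FPKM (1.21 with and 0.86 without fatostatin, adjusted p of the difference 0.076), and *Odc1*, the first enzyme of polyamine synthesis, from 148 to 231 FPKM (0.65 and 0.49, adjusted p of the difference 0.0516).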
